A study of Mus musculus with 6 samples.

Results

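The small ribosomal subunit of mammals is built from the 18S ribosomal RNA and a set of proteins that each come from a gene of their own. The 27 genes described here were chosen by name, as a list of symbols of small subunit ribosomal proteins, out of 22332 symbols in the count table. All 27 were in the table, and all 27 passed the filter on low counts. Further ribosomal protein genes of this subunit are not among the 27. Of the 27 proteins, 12 sit in the head of the subunit and 15 in its body and platform.

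The RNA came from the CGR8 line of mouse embryonic stem cells, kept on gelatin in medium with 10% fetal bovine serum (FBS) and the cytokine LIF, which keeps such cells pluripotent. The siCtrl group (n = 3 libraries) received a pool of siRNAs without a target, and the siRSL24D1 group (n = 3) received a pool against Rsl24d1. Both groups carry transfected siRNA and were collected 48 hours later, and untransfected cells were not analysed here. The groups are cultures of 1 line, called independent triplicates by the series' design text.

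The product of Rsl24d1 helps to assemble the large ribosomal subunit and is related to its protein Rpl24. The question is what becomes of the mRNAs of the other, small subunit when this factor is reduced. As background, cells make the proteins of both subunits in matched amounts from mRNAs that are among the most abundant they hold. Most of these mRNAs begin with a run of pyrimidines at the 5′ end, the terminal oligopyrimidine (TOP) motif, through which mTOR signalling and the protein Larp1 control their translation and stability. Stem cells that divide fast depend on a steady supply of new ribosomes.

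Library totals ran from 30943635 to 35214000 estimated counts. Rsl24d1 itself was at 99.4, 102.7 and 97.9 CPM (counts relative to library size, scaled between libraries by TMM) in siCtrl 1, 2 and 3, and at 53.8, 55.6 and 52.1 in siRSL24D1 1, 2 and 3, a log2 fold change of -0.89 with a standard error (SE) of 0.04 (edgeR adjusted p = 2.02e-05). The 10 stem cell markers summed to 3090 to 3430 CPM over library totals in siCtrl and 2710 to 2810 in siRSL24D1, with 5 called lower and 1 higher. For this and the other marker lists, the background was 20% of all genes tested called lower and 21.2% higher. Neural markers (7, of which 3 were called higher and 1 lower) summed to 252 to 263 CPM in siCtrl and 352 to 410 in siRSL24D1. Most of this sum was Nes, at means of 211 TMM-scaled CPM in siCtrl and 301 in siRSL24D1. Nes, Tubb3 and Neurod1 were the neural markers called higher and Elavl3 the one called lower. Markers of fibroblasts (8), primitive endoderm (8) and trophoblast (7) summed to at most 161 CPM in any library, with ranges that overlapped between the groups. Of those tested, 2 of 8 fibroblast (25%, near the background) and 2 of 6 primitive endoderm markers (33.3%) were called in each direction. Of 6 trophoblast markers 3 were called higher, with log2 fold changes of 1.58 for Cdx2, 0.75 for Hand1 and 0.43 for Eomes. Krt7 was called lower, with a log2 fold change of -0.745. Cdx2 and Hand1 were low, at means of 1.69 and 3.18 TMM-scaled CPM in siCtrl and 5.09 and 5.36 in siRSL24D1. No marker of any list was at 0 in every library. Mitochondrially encoded genes took 2.02% to 2.13% of counts in siCtrl and 2.15% to 2.25% in siRSL24D1. The part of these shifts in the results below was not tested.

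One library stood apart for the genes described here. In siCtrl 3 all 27 members were lower than in siCtrl 1 and siCtrl 2, by a median of 0.13 on the log2 scale below the mean of those libraries. The difference was not particular to the members. Rpl3 of the large subunit was at 3086, 3127 and 2749 CPM in siCtrl 1, 2 and 3. Other genes went the opposite way, such as Pabpc1 at 247, 295 and 482 CPM. In the other group siRSL24D1 2 was the highest library for 26 of 27 members and Rps21 was the exception. The median difference from siCtrl 1 and 2 was -0.29 in siRSL24D1 1, -0.20 in siRSL24D1 2 and -0.275 in siRSL24D1 3. Against siCtrl 3 alone the same medians were -0.14, -0.045 and -0.125.

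All 27 members had a negative log2 fold change in siRSL24D1, and 22 of them were called lower and 0 higher (edgeR quasi-likelihood test, adjusted p under 0.05 over 15084 genes). Of all genes tested, 20% were called lower and 21.2% higher. The changes were small and alike: the median log2 fold change was -0.21, between -0.34 for Rps20 and -0.11 for Rps21, beside a median of 0.015 over all genes tested. The 5 members that were not called were Rps27a, Rps9, Rps29, Rps28 and Rps21. These are levels relative to the other RNAs of a bulk sample, in which fewer cells of a type and less RNA per cell cannot be told apart.

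How many members passed depended on which libraries were used. Without siCtrl 1 there were 8 called lower, without siCtrl 2 there were 6, without siRSL24D1 1 there were 9 and without siRSL24D1 3 there were 8. In these runs 15.5%, 14.1%, 16.4% and 14.4% of all genes tested were called lower, so the members stood nearer to the background than in the full set. Without siCtrl 3 there were 26 (21.5% of all genes), and without siRSL24D1 2 there were 22 (18%). The median log2 fold change moved less, from -0.18 without siCtrl 2 to -0.26 without siCtrl 3. Rps2, Rps12, Rps16, Rps20, Rps24 and Rps26 were called without each of the 6 libraries in turn. Rps6 and Rps18 lost the call in the run without siCtrl 2, Rps4x in 3 runs (without siCtrl 1, siCtrl 2 or siRSL24D1 3) and Rpsa in 5. The 12 others lost it in 4 runs, those without siCtrl 1, siCtrl 2, siRSL24D1 1 or siRSL24D1 3.

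**Figure D1:**
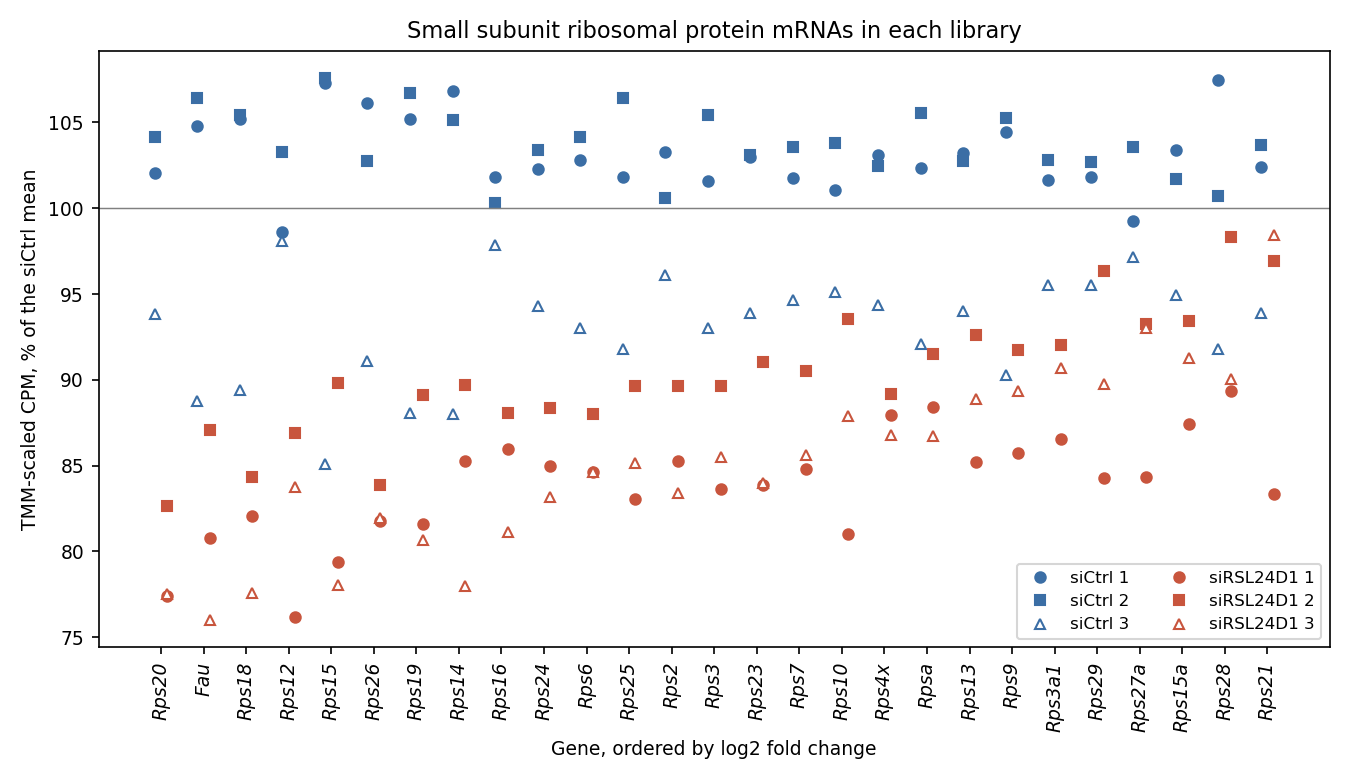
TMM-scaled CPM of each of the 27 members in each of the 6 libraries, as a percentage of that gene's siCtrl mean, with genes ordered by log2 fold change; circles, squares and open triangles are replicates 1, 2 and 3. The open blue triangles (siCtrl 3) lie below the other siCtrl points for all 27 members, and the red squares (siRSL24D1 2) are the highest red points for 26 of 27.

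The bases around the annotated start are shown for the members with the largest and the smallest changes, since the pyrimidine run there is the feature that ribosomal protein mRNAs are known to share. The sequences come from RefSeq (GRCm38.p6), which matched 23 of 27 members, and run from 20 bases before the start to base 10 of the transcript, 5′ to 3′ on the strand of the gene. Capitals mark an unbroken run of at least 6 C or T that begins within 10 bases of the start. Fau, Rps18, Rps12 and Rps15 are among the 5 largest falls, and Rps21, Rps28 and Rps15a among the 5 changes nearest to 0.
Fau (chr19:6057927-6057956, plus strand): ggacgtgcgcgcccccaCTTCTTCCTCTTT
Rps18 (chr17:33955656-33955685, minus strand): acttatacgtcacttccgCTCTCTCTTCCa
Rps12 (chr10:23787200-23787229, minus strand): ttaaataccgtcatgcggccaccgccggCC
Rps15 (chr10:80292411-80292440, plus strand): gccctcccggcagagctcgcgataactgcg
Rps21 (chr2:180257359-180257388, plus strand): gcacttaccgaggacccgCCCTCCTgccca
Rps28 (chr17:33824553-33824582, minus strand): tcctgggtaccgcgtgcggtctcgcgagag
Rps15a (chr7:118116138-118116167, minus strand): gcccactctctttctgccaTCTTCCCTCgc

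Among the sequences shown, a start without such a run occurs at both ends of the order. The run of Fau is 16 bases long, with its end past the window, and that of Rps18 is 11, and the run of Rps12, also 11 bases, begins at base 9 and goes on past the window. The runs of Rps15a and Rps21, whose changes were small, are shorter, at 9 and 7 bases. Rps15 and Rps28 have none at the starts shown. Rps15a also holds an unmarked run of C and T that begins too early for the rule. Presence and length of a run depend on the annotated start, and GENCODE M21 begins some of these genes elsewhere (Rps18 at base 33956001). Whether the length of the run goes with the fall was not tested. Over all matched members 13 of 23 (56.5%) had such a run, against 25.3% of the 27025 genes in the table of promoters. On the opposite strand 2 of 23 (8.70%) had one, against 28.3% of genes. Members with the run had a median log2 fold change of -0.22 and the 10 without it -0.19, with ranges that overlap almost fully (-0.30 to -0.11 and -0.28 to -0.11).

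Other motifs were sought on both strands of the window from 250 bases before to 50 after the start. The letters CCGGAAG, bound by the ETS family factor GABP, were found for 10 of 23 members (43.5%) and 9.93% of genes. Among the members that hold them are Rps18 and Rps26, with larger falls, and Rps21, with the smallest change. The letters TATAAA, of the TATA box, were found for 2 of 23, Rps2 and Rps28 (15.7% of genes), and AAGATGGCG, a YY1 motif, for 0 of 23 (1.64% of genes). A match of letters in a window is a description and not a measured site.

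Of the 12 head proteins, 9 were called lower and 0 higher, at a median of -0.23 (20% of all genes tested were called lower and 21.2% higher). Rps20, which sits in the head and is tagged with ubiquitin when ribosomes collide, had the largest fall of the list. It was at 1501, 1532 and 1380 CPM in siCtrl 1, 2 and 3 and at 1138, 1216 and 1140 CPM in the siRSL24D1 libraries. All 3 siRSL24D1 libraries were below all 3 siCtrl libraries, siCtrl 3 included. The log2 fold change was -0.34 (SE 0.05, adjusted p = 0.00166), or 20.8% lower. The gene lies on chromosome 4 (3831334 to 3835665, minus strand, GRCm38) in 4 exons, with a small nucleolar RNA (snoRNA) gene inside it.

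Rps18, a head protein that contacts the large subunit, had the next largest fall in the head. It was at 2049, 2054 and 1742 CPM in siCtrl and 1599, 1643 and 1512 CPM in siRSL24D1, again without overlap. The log2 fold change was -0.30 (SE 0.07, adjusted p = 0.0104), and without siCtrl 2 the adjusted p was 0.0538. Rps15, which lies near the decoding site, was at 1225, 1228 and 972 CPM in siCtrl and 906, 1025 and 891 CPM in siRSL24D1. Here siCtrl 3 was below siRSL24D1 2, so the groups overlapped. Its change of -0.28 passed (adjusted p = 0.0473), but not with scaling by library totals (0.0518), not in limma-voom (0.0509), and in 4 of the 6 runs that left out a library it did not (largest adjusted p = 0.161).

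Rps16, whose tail reaches the tRNA in the P site, had the smallest SE of the list. It was at 720.5, 709.7 and 692.4 CPM in siCtrl and 608, 623 and 574 CPM in siRSL24D1. The libraries of each group were close together and the groups were well apart. The log2 fold change was -0.23 (SE 0.04, adjusted p = 0.00387).

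Rps19, the gene mutated most often in Diamond-Blackfan anaemia, a failure of red cell production, was at 1469, 1490 and 1230 CPM in siCtrl and 1140, 1244 and 1127 CPM in siRSL24D1. As for Rps15, siCtrl 3 fell within the siRSL24D1 range. The change of -0.255 had an adjusted p of 0.0308, with an adjusted p of up to 0.122 when 1 library was left out. Rps3, at the entrance of the mRNA channel, averaged 2000 ± 127 CPM over the siCtrl libraries against 1725 ± 61.2 over the siRSL24D1 libraries (SD, n = 3 per group), a change of -0.21 (adjusted p = 0.0171). Rps25, which some viral mRNAs need to recruit the ribosome, was at -0.22 (adjusted p = 0.0214). Rps10, ubiquitinated on stalled ribosomes like Rps20, was at -0.19 (adjusted p = 0.0336). Each of the last 3 had all siRSL24D1 libraries below all siCtrl libraries, and each was called in only 2 of 6 runs that left out a library, those without siCtrl 3 or siRSL24D1 2.

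Head members that did not pass the test are small proteins or a fusion. Rps27a, made as a fusion with ubiquitin that is cut off afterwards, was at 1937, 2022 and 1897 CPM in siCtrl and 1647, 1821 and 1816 CPM in siRSL24D1. The groups did not overlap, but the change of -0.15 (95% confidence interval -0.27 to -0.03) had an adjusted p of 0.0537. It was called by DESeq2 (adjusted p = 0.0293), in limma-voom (0.0478), with upper-quartile scaling (0.0349) and with no filter (0.0419). Rps29, a zinc-binding protein of 56 residues, was at 998, 1007 and 936 CPM in siCtrl and 826, 944 and 879.9 CPM in siRSL24D1, with siCtrl 3 below siRSL24D1 2. Its change was -0.15 (interval -0.28 to -0.02, adjusted p = 0.0667), and it was called by DESeq2 (0.044) and with upper-quartile scaling (0.0454).

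Rps28, of 69 residues, lies near the exit of the mRNA channel. It was at 1155, 1082 and 987 CPM in siCtrl and 960.01, 1057 and 968 CPM in siRSL24D1. The groups overlapped, and the change of -0.11 (interval -0.26 to 0.04) did not pass (adjusted p = 0.21). With the changes corrected for the length of transcripts it stood at 0.00 (adjusted p = 0.979), the only change of sign among the 27 members under the alternatives tried.

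**Figure D2:**
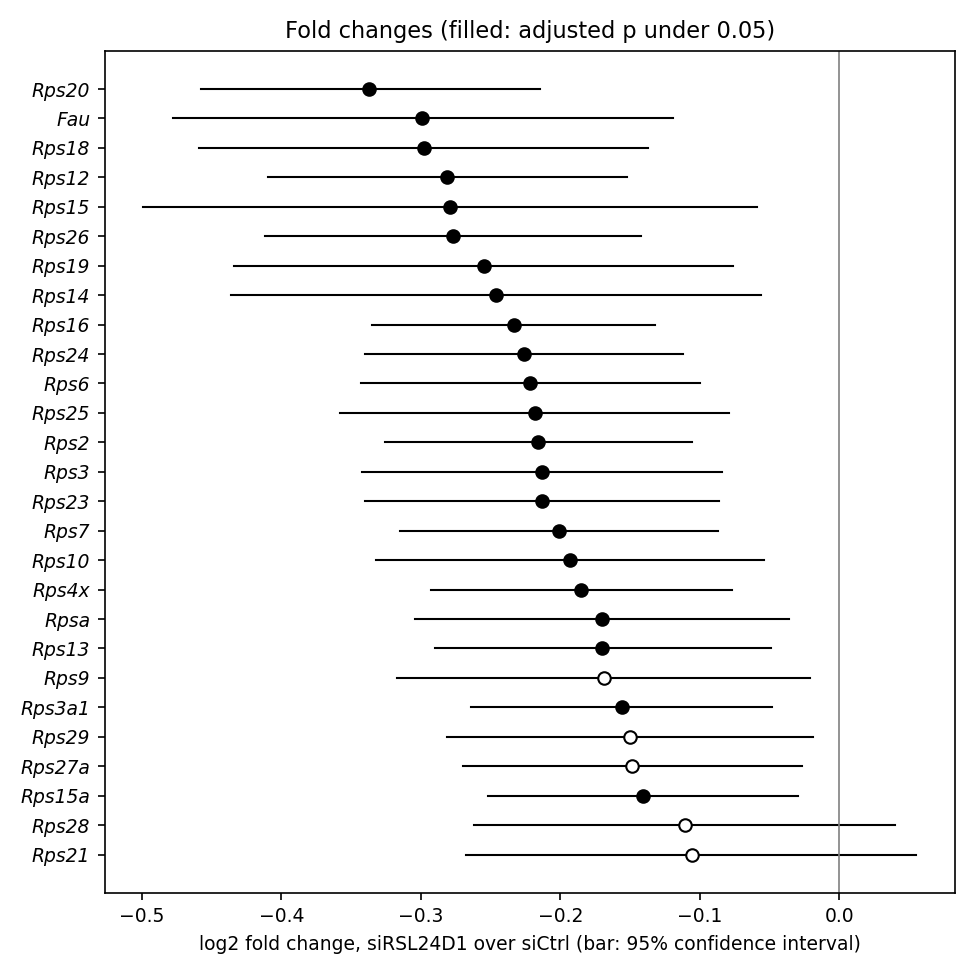
Log2 fold change of each member, siRSL24D1 over siCtrl, with its 95% confidence interval from the edgeR fit; filled points have an adjusted p under 0.05. All 27 points lie between -0.34 and -0.11, and all 27 intervals overlap each other.

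The body and platform held 15 members, of which 13 were called lower and 0 higher, at a median of -0.20. Here too the background was 20% of all genes tested called lower and 21.2% higher. Fau is translated as a fusion of a ubiquitin-like protein with the ribosomal protein eS30. It was at 698, 709 and 591 CPM in siCtrl and 538, 580.2 and 506 CPM in siRSL24D1. All siRSL24D1 libraries were lower, though siRSL24D1 2 came close to siCtrl 3. The log2 fold change was -0.30 (SE 0.08, adjusted p = 0.0165), with adjusted p-values up to 0.0717 when 1 library was left out.

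Rps26, which lines the mRNA exit channel, fell from 826, 799 and 709 CPM to 636, 653 and 638 CPM. The siRSL24D1 libraries were close together and lay below every siCtrl library. The change was -0.28 (SE 0.06, adjusted p = 0.00657). Rps24, in the foot of the subunit, fell from 1626, 1643 and 1499 CPM to 1351, 1404 and 1322 CPM, and Rps2, at the mRNA entry channel, from 2338, 2277 and 2176 CPM to 1929, 2029 and 1888 CPM. Both pairs of groups were separate. Their changes were -0.23 (adjusted p = 0.0078) and -0.22 (adjusted p = 0.00803).

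Rps6 is the substrate of the S6 kinases downstream of mTOR. Its mRNA was at 1905, 1930.2 and 1723 CPM in siCtrl and 1568, 1631 and 1568 CPM in siRSL24D1. The groups were separate and the change was -0.22 (SE 0.05, adjusted p = 0.0112), with the call lost without siCtrl 2 (adjusted p = 0.0631). Rpsa, also known as a laminin receptor precursor, was the member with the most counts. It was at 3020, 3113 and 2716 CPM in siCtrl and 2607, 2699 and 2558 CPM in siRSL24D1, with siRSL24D1 2 just below siCtrl 3. The change of -0.17 (adjusted p = 0.0467) was called in 1 of 6 runs that left out a library, that without siCtrl 3.

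Rps14, a platform protein whose loss underlies the anaemia of the 5q- syndrome, was at 1759, 1731 and 1449 CPM in siCtrl and 1404, 1477 and 1284 CPM in siRSL24D1. The groups overlapped through siCtrl 3 and siRSL24D1 2, and the change was -0.25 (SE 0.08, adjusted p = 0.0435). Rps23, which shapes the decoding centre, was at -0.21 (adjusted p = 0.0158) and Rps7 at -0.20 (adjusted p = 0.0127). Rps4x, encoded on the X chromosome, was at -0.185 (adjusted p = 0.0146), Rps13 at -0.17 (adjusted p = 0.0318) and the platform protein Rps3a1 at -0.16 (adjusted p = 0.0291). All 5 had separate groups. With the length correction Rps13 was at -0.09 (adjusted p = 0.0914) and Rps3a1 at -0.11 (0.0558), and Rps10 of the head at -0.11 (0.0756).

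Rps15a was at 1078, 1060 and 990 CPM in siCtrl and 911, 974 and 951 CPM in siRSL24D1. Its change of -0.14 (SE 0.05) was the smallest that passed (adjusted p = 0.0466), and it did not pass after the length correction (-0.065, adjusted p = 0.21), the GC correction (0.0689) or with library totals (0.0548). Rps9, a body protein at the mRNA entry, averaged 1293 ± 109 CPM over the siCtrl libraries against 1150 ± 39.0 over the siRSL24D1 libraries (SD, n = 3 per group), with an overlap through siCtrl 3. Its change of -0.17 (interval -0.32 to -0.02) had an adjusted p of 0.0664, and of 0.0368 by DESeq2. Rps21 was at 567, 574 and 519.8 CPM in siCtrl and 461, 536 and 545 CPM in siRSL24D1. The siRSL24D1 libraries differed among themselves by more than the siCtrl libraries did, and the change of -0.11 (interval -0.27 to 0.06) did not pass (adjusted p = 0.26).

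Rps12, in the beak of the head, needs its own account because a near-identical gene is listed beside it. It was at 70.4, 73.7 and 70.02 CPM in siCtrl and 54.3, 62.02 and 59.8 CPM in siRSL24D1, without overlap, a change of -0.28 (SE 0.06, adjusted p = 0.005). That is far below every other member. The table also lists Rps12-ps3, annotated as protein-coding in GENCODE M21, whose transcript holds a copy of the Rps12 coding sequence with 100% identity. Rps12-ps3 was at 1732, 1801 and 1688 CPM in siCtrl and 1469, 1651 and 1715 CPM in siRSL24D1, a change of -0.11 (adjusted p = 0.189).

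Reads from these genes cannot be told apart over the shared sequence, so the split is uncertain. Rps12 held 3.91%, 3.93% and 3.98% of the counts of both in siCtrl and 3.57%, 3.62% and 3.37% in siRSL24D1. Counted together, a choice made after the data were seen, they were at 1802, 1875 and 1758 CPM in siCtrl and 1523, 1713 and 1775 CPM in siRSL24D1. siRSL24D1 3 then lay above siCtrl 3, and the change was -0.12 (SE 0.06, adjusted p = 0.164). With this sum in place of Rps12, 21 of 27 members were called lower (20% of all genes tested).

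Near-identical copies are common for this family. Over 26 of 27 members at least 1 other GENCODE gene held at least 90% of the coding sequence at 95% identity or more, with a median of 6 such genes and up to 24 for Rps2. Nearly all are annotated as pseudogenes. Rps3 had none at these limits. Besides Rps12, copies of Rps4x, Rps7 and Rps18 were listed in the table, all with at most 30.7 counts in any library. How reads shared with copies outside the table were treated is not given in the sources used here, so each member's level is uncertain to that extent.

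**Figure D3:**
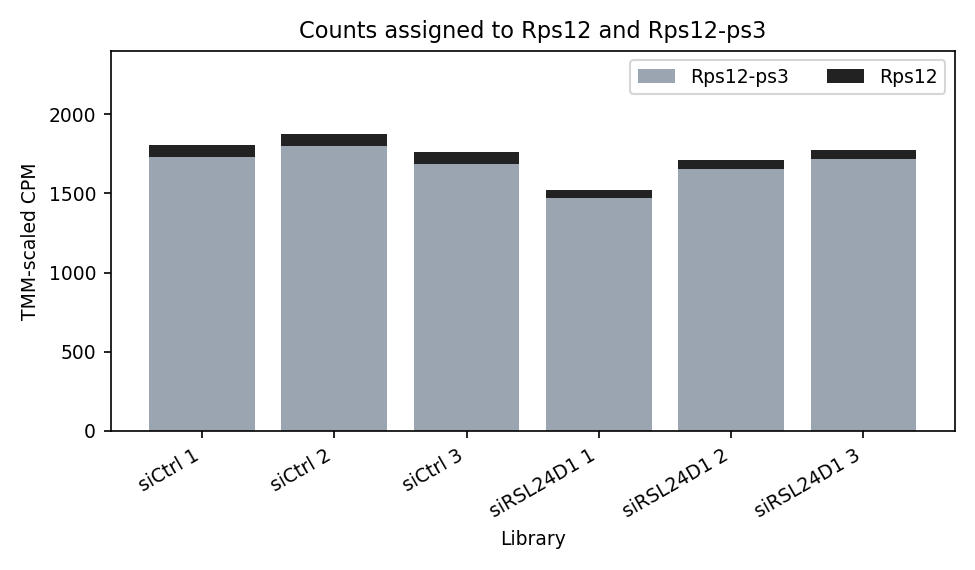
TMM-scaled CPM assigned to Rps12 (black) and Rps12-ps3 (grey), stacked, in each library. Rps12 takes 3.37% to 3.98% of the stack, and the stack of siRSL24D1 3 (1775 CPM) is higher than that of siCtrl 3 (1758 CPM).

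Levels can be compared between genes only per length. Counts per kilobase of coding sequence were rescaled as TPM values are, over the genes with a coding length (mean ± SD, n = 3). They were highest for the short genes Rps29 (5419 ± 57.4 in siCtrl) and Rps28 (4819 ± 269). Untranslated parts are not in this length. These parts are long for Rps20 (357 coding of 3706 bases) and Rps24 (399 of 1613), so the ranks of both depend on the length chosen. Rps18 (3964 ± 255), Rps27a (3875 ± 76.6) and Rps20 (3825 ± 101) followed and did not differ beyond their spread. Rps23 and Rps24 were level with each other at 3705 ± 91.0 and 3698 ± 77.7. At the low end were Rps10 (1557 ± 27.8), Fau (1549 ± 109) and Rps16 (1501 ± 21.3), where Fau overlapped both of the others. Rps12 alone was at 167 ± 4.04, and with its copy at 4168, 4317 and 4264 in siCtrl 1, 2 and 3. In siRSL24D1 Rps20 was at 3148 ± 30.7, below Rps23 at 3321 ± 63.0 and Rps24 at 3287 ± 41.8.

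**Figure D4:**
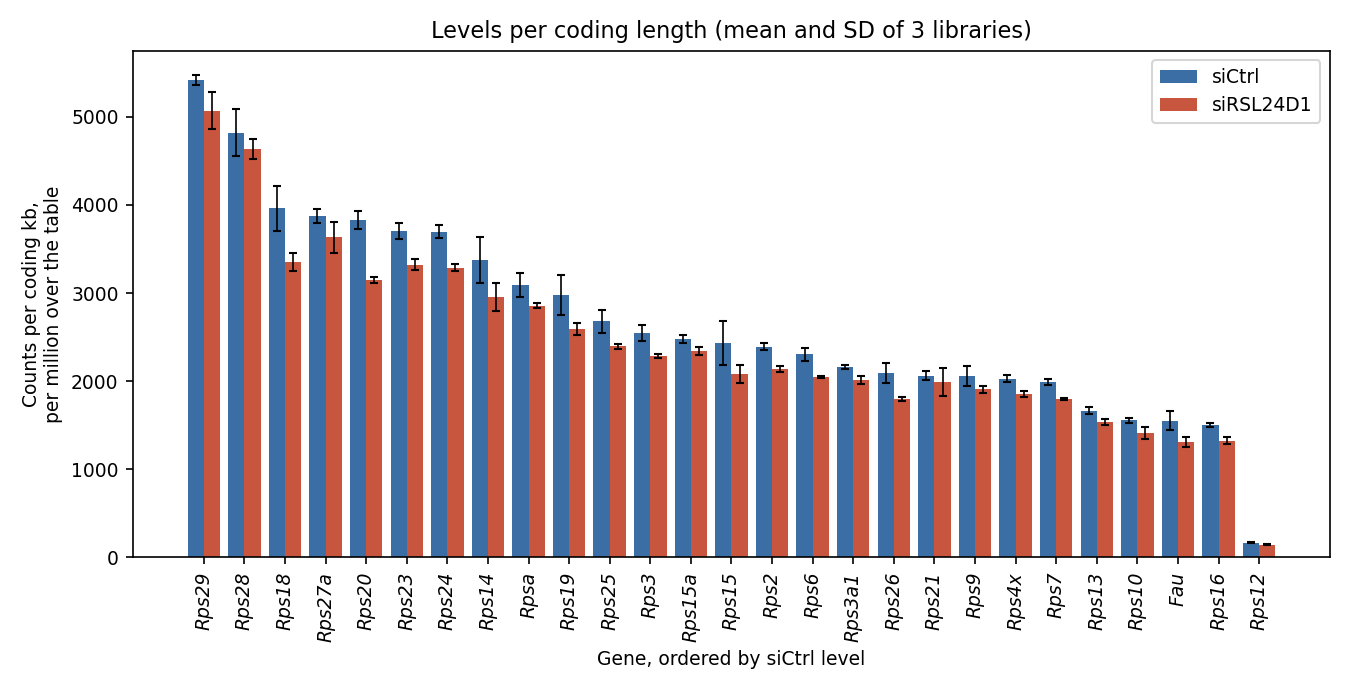
Counts per coding kilobase, rescaled over the genes with a coding length, as mean and SD over 3 libraries for siCtrl (blue) and siRSL24D1 (red), with genes ordered by siCtrl level. Levels run from 5419 for Rps29 to 1501 for Rps16, and Rps12 without its copy stands apart at 167.

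Together the 27 members took 3.74%, 3.75% and 3.40% of all counts in siCtrl 1, 2 and 3 and 3.14%, 3.29% and 3.15% in siRSL24D1 1, 2 and 3. The siRSL24D1 libraries were all lower, at 3.19% ± 0.08 against 3.63% ± 0.20 (SD, n = 3 each), a log2 difference of -0.18. The two-sided exact permutation test gave p = 0.1, the smallest that 3 against 3 libraries allow (0.2 adjusted over the 4 shares and ratios compared). Without siCtrl 3 the difference was -0.23. With counts divided by transcript length it was -0.13. As shares of the library total, 20 of 27 members were lower in all siRSL24D1 than in all siCtrl libraries and 0 were higher, where 24.2% of all genes tested were lower and 29.7% higher in this sense. On the TMM-scaled levels the number was also 20 and the background 26.2%.

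Small and large subunit mRNAs were lower together. Of 47 genes of the large subunit 37 were called lower and 0 higher, a share of 78.7% beside 81.5% of the small subunit members, at a median of -0.225 (20% of all genes tested were lower). The large subunit count was 21 without siCtrl 1, 17 without siCtrl 2, 23 without siRSL24D1 1 and 19 without siRSL24D1 3, and 46 without siCtrl 3. Rpl3, at -0.54, and Rpl10a, at -0.52, fell by more than any small subunit member. Small subunit counts were 0.567, 0.566 and 0.569 of those of the large subunit in siCtrl 1, 2 and 3 and 0.576, 0.578 and 0.582 in siRSL24D1. All 3 siRSL24D1 ratios were higher, by 0.03 on the log2 scale (exact permutation p = 0.1, 0.2 adjusted over 4 comparisons). In this ratio siCtrl 3 did not stand below siCtrl 1 and 2.

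**Figure D5:**
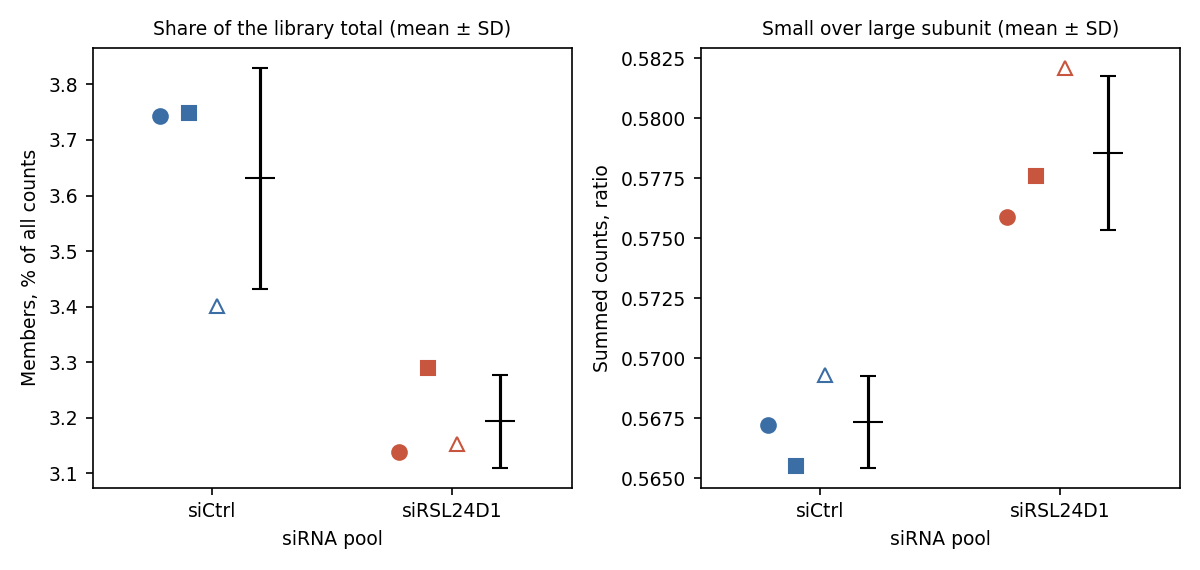
Left, summed counts of the 27 members as a percentage of each library's total; right, the ratio of their summed counts to those of 47 large subunit genes. Points are libraries (circle, square and open triangle for replicates 1, 2 and 3) and black marks are mean and SD; neither axis starts at 0. The share is 3.14% to 3.29% in siRSL24D1 against 3.40% to 3.75% in siCtrl, and the ratio 0.576 to 0.582 against 0.566 to 0.569.

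Within the list, the balance between parts of the subunit moved by amounts within the spread. The ratio of head to body and platform counts was 0.667 ± 0.006 in siCtrl against 0.655 ± 0.0098 in siRSL24D1 (SD, n = 3 each), with an exact permutation p of 0.2 (0.267 adjusted). Members with a counterpart in bacteria (13, 11 of them called lower) had a ratio of 1.198 ± 0.0121 to those without (14, 11 called lower) in siCtrl and 1.180 ± 0.0197 in the other group (exact permutation test, p = 0.3, 0.3 adjusted). The groups overlapped in both ratios. The share called lower over all genes tested was 20%.

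Within the sum of the members the share of most genes overlapped between the groups. Rps20 made up 3.97%, 4.02% and 4.06% of the member counts in siCtrl and 3.68%, 3.68% and 3.66% in siRSL24D1. This was a clear step down, with siCtrl 3 beside the rest of its group. Rps26 went from 2.19%, 2.10% and 2.08% to 2.06%, 1.98% and 2.05%. In the other direction Rps28 went from 3.06%, 2.84% and 2.90% to 3.10%, 3.20% and 3.11%, and Rps15a from 2.85%, 2.78% and 2.91% to 2.95%, 2.95% and 3.06%. Rps20 and Rps26 were the 2 members lower in all siRSL24D1 libraries on this scale, and Rps9, Rps15a and Rps28 the 3 that were higher. Relative to the member sum, 10.3% of all genes tested were lower and 46.3% higher in all siRSL24D1 libraries. The member sum was itself a smaller share of the siRSL24D1 libraries, and the members' shares of it must balance. These percentages thus cannot show whether 2 lower and 3 higher members are few or many.

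In the genome the members are spread over 14 chromosomes, with 6 on chromosome 7 and 4 on chromosome 17. They have 3 to 7 exons and encode 56 to 295 residues. Annotated snoRNA genes lie within the span of 8 of them, on the same strand, 14 snoRNAs in all. As a class snoRNAs guide modification of ribosomal RNA. The position of these in introns and their targets were not checked. All 8 hosts were called lower, at a median of -0.21, among them Rps20, Rps2 (Snora64), Rps3 (Snord15a and Snord15b) and Rpsa (Snora62). Of the 19 without one, 14 were called lower, at the same median of -0.21, and the difference between hosts and others was not tested. Of all genes tested 20% were called lower.

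Other mRNAs known to carry a TOP motif went down less uniformly. Of 17 such genes 7 were called lower (41.2%, beside 20% of all genes tested) and 1 higher, at a median of -0.08. Without siCtrl 1, siCtrl 2, siRSL24D1 1 or siRSL24D1 3 there were 3 called lower, where 14.1% to 16.4% of all genes were. The falls were largest for Hnrnpa1, an RNA-binding protein, at -0.27 (adjusted p = 0.00384) and the initiation factor Eif4b at -0.23 (adjusted p = 0.00232). Rack1, a scaffold on the head of the small subunit, was at -0.19 (adjusted p = 0.0384). The gene that rose was Vim, an intermediate filament protein, at 0.62 (adjusted p = 0.000159). The difference between this list and the members was not tested.

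Genes for proteins that build or modify the small subunit did not follow the members. Of 21 partners 8 were called higher (38.1%, beside 21.2% of all genes tested) and 0 lower, at a median of 0.115. Leaving out any 1 library gave 6 partners called higher, beside 14.5% to 22% of all genes, and 0 lower. The number was also 6 with DESeq2 size factors, beside 20%, and 11 with scaling by library totals, beside 23.7%. Riok2, a kinase of late small subunit maturation, was at 0.38 (adjusted p = 0.000387) and Bysl, a processing factor of the small subunit precursor, at 0.365 (adjusted p = 0.000835). Among 20 genes that control TOP mRNAs or ribosomal protein genes, 3 rose and 3 fell (15% each way), below the 21.2% and 20% of all genes tested. Leaving out 1 library gave 2 to 5 higher, with 5 without siCtrl 3, and 1 to 3 lower, with 1 without siCtrl 2, siRSL24D1 2 or siRSL24D1 3. Mycn rose by 0.54 (adjusted p = 0.000121) and Myc by 0.53 (adjusted p = 0.000825), both transcription factors of growth. Deptor, an inhibitor of mTOR, was at -0.50 (adjusted p = 0.00134) and Tsc1, part of another mTOR inhibitor, at -0.16 (adjusted p = 0.0178), while Tsc2, its partner in that inhibitor, rose by 0.31 (adjusted p = 0.0218). Larp1 was at -0.20 and did not pass (adjusted p = 0.168), nor did Mtor at 0.03 (adjusted p = 0.716).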

How the data were processed

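The values, as deposited by the authors, are estimated counts by gene symbol in 6 libraries of rRNA-depleted total RNA. STAR 2.7.0f, Salmon 0.14.1 and the build GRCm38 are named in the submitters' processing notes. What each tool did, the filters and the strand setting: not given in the sources used here. Counts were rounded (21.59% to 22.65% of a library's values were not whole at a tolerance of 1e-09), filtered with filterByExpr (minimum count 10, total 15), scaled by TMM and tested in edgeR 4.0.16 (R 4.3.3) by quasi-likelihood F test, siRSL24D1 against siCtrl, two-sided, with Benjamini-Hochberg adjustment over 15084 genes; tests had been planned for counts. Common biological variation was 7.48%. SEs are the log2 fold change over the root of F. Shares and ratios used exact permutation over libraries. Lengths and positions are from GENCODE M21 (1 principal transcript a gene, 3706 bases for Rps20), and copies were sought with blastn 2.17.0. Alternatives used limma 3.58.1 and DESeq2 1.42.0. The fit was tested on simulated counts. Replicates 1 to 3 carry the same numbers in both groups, but the labels tie no pairs. All members are named, with values per library for the 5 largest and 5 smallest changes and others of known role. The members, lists and rules were chosen with earlier results of these data known. p-values measure the spread between these cultures.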

Additional observations from a re-analysis of the deposited data

How the results depend on the processing

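Under 21 alternatives, 565 of 567 log2 fold changes of single members were below 0. The exceptions were those of Rps28, at 0.00 with the length correction (0.002 with and without the replicate block). Not all alternatives are separate. The stricter threshold reuses the fold changes of the main fit, and unrounded values left them nearly the same. Adding Rps12-ps3 to Rps12 changed little but Rps12. The number of members called lower stayed between 18 and 25 of 27 under other scalings, filters, tests, GC and length corrections and unrounded values. In these settings 15% to 22.4% of all genes were called lower. It was 6 at an adjusted p under 0.01, where 12.4% of all genes were called lower. Leaving out 1 library gave 6 to 26, beside 14.1% to 21.5% of all genes. The number called higher was 0 in each alternative. The median ran from -0.26 without siCtrl 3 to -0.16 with the length correction. The deviations of same-numbered libraries from their group means had correlations over genes of -0.22, 0.14 and 0.17. With 3 libraries in a group these values cannot show whether the numbers mark pairs. With the replicate block 25 members were called lower (20.6% of all genes). The share of counts then gave p = 0.25 by exact sign flips over pairs, the smallest that 3 pairs allow. The head to body ratio was at -0.03 on the log2 scale, 0.00 (-0.005) per transcript length and -0.01 with Rps12-ps3 added to Rps12; the cause was not tested.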

Other observations

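The members of siCtrl 3 and siRSL24D1 2, libraries of different groups, were close in level. The median log2 difference over the 27 members was -0.045 (siRSL24D1 2 over siCtrl 3), against -0.13 for siCtrl 3 over the mean of siCtrl 1 and 2. Over 15084 genes the deviations of these libraries from their own group means had a correlation of -0.40, across genes, which are not independent. Of the pairs between the groups this correlation was the largest in size. The pair of siCtrl 1 and siRSL24D1 2 was at 0.34, and that of siCtrl 3 and siRSL24D1 1 at 0.26. Deviations from a group mean cancel within the group, so a negative correlation must be met by positive ones for the same libraries.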
